A study of Mus musculus with 6 samples.

Results

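AP-1 is a family of dimeric transcription factors, and its 10 members described here are the genes Fos, Fosb, Fosl1, Fosl2, Jun, Junb, Jund, Atf3, Maff and Batf3, out of 52636 genes in the count table. They were taken by symbol as listed genes of the Fos, Jun, Atf and Maf families, and all 10 were found, each as a protein-coding gene of the mm10 build. RNAseq compared untreated cultures of 2 mouse mammary tumour cell lines, with 3 biological replicates of each by the study's methods. J110 cells came from tumours of mice that carry a transgene for AIB1, a coactivator of the estrogen receptor, driven by the MMTV LTR, and SSM3 cells came from mammary tumours of 129SvEv mice. Both lines were grown with insulin and hydrocortisone, and were detached and washed before RNA was extracted, whilst SSM3 cells had more serum and CO2 and also received transferrin and β-mercaptoethanol. Each group is 1 cell line, so the line, the mouse strain it came from and its medium cannot be told apart.

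AP-1 proteins carry a basic region that contacts DNA and a leucine zipper that joins 2 proteins. Fos proteins bind DNA only as partners of another zipper protein, usually a Jun protein, whereas Jun proteins can also pair with themselves. Fos, Fosb, Jun, Junb and Atf3 are immediate-early genes, which are switched on within minutes of serum, growth factors or stress through kinases of the MAPK family. In mammary cells AP-1 is known for roles in proliferation and invasion, and the estrogen receptor can act on genes through AP-1 bound to their regulatory regions.

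Libraries held from 4200785 to 5416305 counts of reads from the 3′ ends of polyadenylated transcripts, scaled here to CPM, that is, counts relative to the library size after TMM adjustment. At these depths 3 counts, taken as the floor, stand for 0.578 to 0.668 CPM. Ncoa3, the mouse gene for AIB1, had 110, 106 and 102 counts in the J110 libraries, against 181, 199 and 186 in those of SSM3 (log2 difference 0.91, edgeR adjusted p = 2.94e-06). Whether the transgene's transcript is counted at the 3′ end of Ncoa3 is not given in the sources used here, so this value does not check the label. Epithelial markers summed to between 2677 and 2766 CPM over the J110 libraries and between 11878 and 13073 CPM over those of SSM3, and Epcam had 2, 1 and 7 counts in J110, where Krt8 had from 6182 to 6584. Krt19 made up most of the sum in SSM3, with 7412 CPM on average against 18.6 in J110, whereas Krt18 was lower there, with 970 CPM against 1430 (log2 difference -0.56, edgeR adjusted p = 6.61e-07). Of 6 leukocyte markers, 5 were at the floor in both lines, and Cd68 had 70 to 115 counts in J110 and 5 to 9 in SSM3. Of 4 endothelial markers, Cdh5 had 790 to 856 counts in J110 and at most 2 in SSM3. Kdr had 6 to 11 counts in J110 and Pecam1 at most 4, whilst Tie1 had 0 counts in every library of both lines. Of 5 fibroblast markers, none had more than 9 counts in any library. The part of such markers in the results below was not tested.

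Of the 10 genes, 9 passed the filter on low counts and went into the comparison of the lines by the quasi-likelihood test of edgeR. All 9 tested genes had an adjusted p below 0.05, with Fos, Fosl2, Jun, Junb, Jund, Atf3 and Maff higher and Fosb and Fosl1 lower in SSM3. Among all 12284 genes tested, 77.9% were called, 38.6% as higher and 39.2% as lower in SSM3, so that a call on its own sets these genes apart little from any other gene. Fosb and Fosl1 passed the filter only through their counts in J110, and Batf3 did not pass it. The 7 genes with at least 10 counts in every library were the 7 that were higher in SSM3. Under glmTreat, an edgeR test that asks for a change of more than 2-fold, 5 of the 9 were called, namely Fos, Jund and Atf3 as higher and Fosb and Fosl1 as lower, against 34.8% of all genes. The libraries of the 2 lines did not overlap for any of the 10 genes, and 79.6% of all genes tested had no overlap. In these bulk libraries fewer expressing cells and less RNA per cell cannot be told apart.

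**Figure D1:**
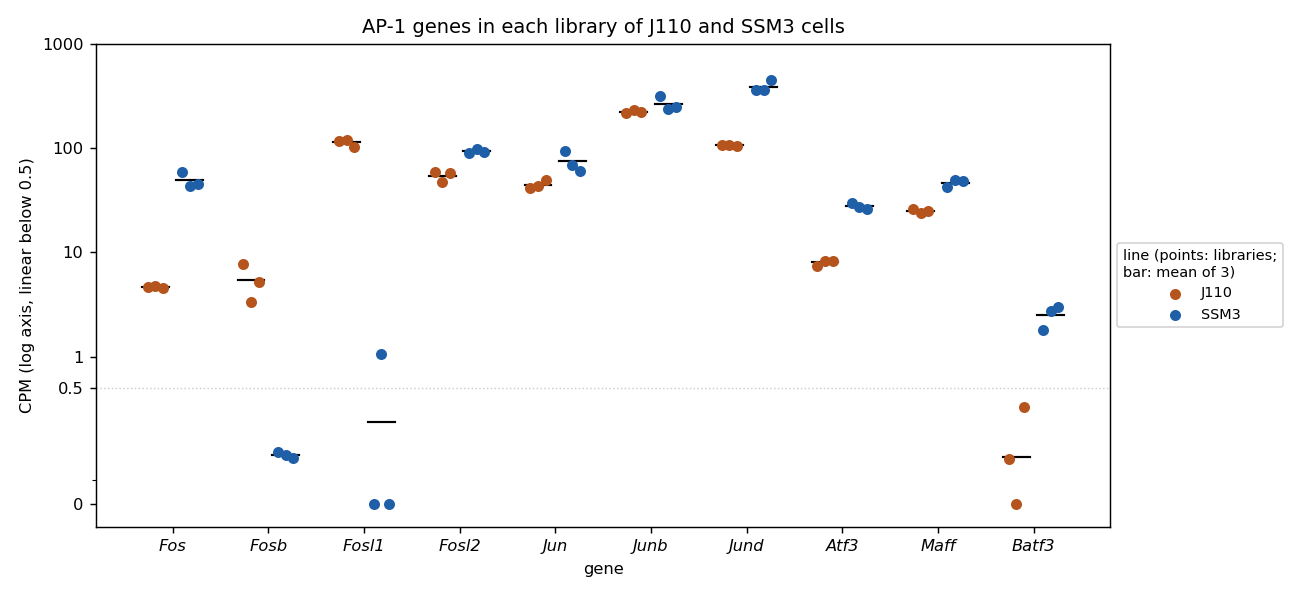
CPM of the 10 AP-1 genes (log axis, linear below 0.5) in each library, with points for the 3 libraries of J110 and the 3 of SSM3 and a bar for the mean of 3. Fosl1 lies between 102 and 121 CPM in J110 and at 0, 1.06 and 0 CPM in SSM3, whilst Fos lies near 4.65 CPM in J110 and between 43.3 and 58.8 CPM in SSM3.

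Fosl1 showed the widest gap between the lines among the 9 tested AP-1 members. It encodes FRA1, a Fos protein that lacks the transactivation domain of c-Fos and is known from invasive and mesenchymal carcinoma cells. Fosl1 (ENSMUSG00000024912, mm10 chromosome 19 from 5447547 to 5455946 on the forward strand) reached 607, 612 and 491 counts in the J110 libraries, against 0, 5 and 0 in those of SSM3. Every J110 library thus stood far above every SSM3 library, and all SSM3 counts fell in replicate 2. Its mean was 114 ± 9.78 CPM in J110, against 0.354 ± 0.613 CPM for SSM3 (n = 3 each, ± SD), and the log2 difference, SSM3 minus J110, came to -8.23 ± 0.29 (SE, edgeR quasi-likelihood, adjusted p = 1.69e-13). Without SSM3 replicate 2 no count was left in SSM3, and Fosl1 was at least 179-fold lower there, taking 3 counts per library as the floor.

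SSM3 replicate 2 also held low counts on other genes of J110. Of 51 genes with at least 50 CPM on average in J110 and no count in SSM3 replicates 1 and 3, 46 had a count in replicate 2, at a pooled 0.48% of their J110 level. For Fosl1 the value was 0.935%, and 6 of the 51 genes, Fosl1 included, reached it. J110 replicate 3 likewise held low counts on genes of SSM3. Of 45 genes with at least 50 CPM on average in SSM3 and no count in J110 replicates 1 and 2, 29 had a count there, at a pooled 0.2% of their SSM3 level. The 3′ end of Fosl1 lies within exons of Ccdc85b on the opposite strand, with 1163 of 2033 exonic bases shared. Ccdc85b had from 1 to 4 counts in every library of both lines. The strand setting of the counting is not given in the sources used here, so the level of Fosl1 and its ratios to other members are uncertain.

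Fos went the other way. It encodes c-Fos, the founding member of the Fos family, whose transcript is made in a short burst and decays fast. Fos (ENSMUSG00000021250, chromosome 12 from 85473890 to 85477273 on the forward strand) reached 24, 24 and 22 counts in the J110 libraries, against 264, 204 and 225 in those of SSM3. All 3 SSM3 libraries lay above all J110 libraries, and replicate 1 was the highest of them. On the CPM scale Fos was 4.65 ± 0.0818 in J110 and 49.0 ± 8.54 in SSM3 (SD, n = 3 each), which is 10.4-fold higher in SSM3 (log2 difference 3.39 ± 0.18 SE, edgeR adjusted p = 3.21e-11).

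Fosb, another Fos gene that serum induces, was found mainly in J110. Fosb (ENSMUSG00000003545, chromosome 7 from 19302696 to 19310051, reverse strand) had 40, 17 and 25 counts in J110 and 1 count in each SSM3 library. The J110 libraries spread widely among themselves, with 7.71, 3.36 and 5.22 CPM, and all stood above SSM3. By summed counts Fosb was 25.9-fold lower in SSM3, with an exact 95% interval from 8.54 to 128 that covers counting error only (log2 difference -4.53 ± 0.55 SE, edgeR adjusted p = 1.35e-06). Fosl2 encodes FRA2, which like FRA1 lacks the transactivation domain. It was at 59.4, 46.9 and 57.6 CPM in the J110 libraries, against 89.5, 97.9 and 92.3 CPM in those of SSM3, a log2 difference of 0.77 ± 0.099 (SE, edgeR adjusted p = 2.31e-06). Within the Fos family, then, Fos and Fosl2 were higher and Fosb and Fosl1 lower in SSM3.

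Fos and Fosb, both immediate-early genes, differed between the lines in opposite directions, so the 150 bases before their annotated starts are shown first, from RefSeq on GRCm38.p6, written 5′ to 3′. Capitals mark TGACG, the half-site of the cAMP response element.
Fos, chr12:85473740-85473889, forward strand: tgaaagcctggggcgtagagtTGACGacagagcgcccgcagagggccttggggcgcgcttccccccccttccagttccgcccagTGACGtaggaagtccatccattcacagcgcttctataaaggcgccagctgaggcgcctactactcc
Fosb, chr7:19310046-19310195, reverse strand: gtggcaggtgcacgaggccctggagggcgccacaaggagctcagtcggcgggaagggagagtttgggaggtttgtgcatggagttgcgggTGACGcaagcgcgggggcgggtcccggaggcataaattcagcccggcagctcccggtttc
The 250 bases before the start were searched on both strands for TGACG, for the whole element TGACGTCA, which contains it, for TGACATCA, the variant known from the Jun promoter, for the AP-1 element TGACTCA, for TATAAA and for the CArG box bound by SRF. RefSeq windows were matched for 9 of the 10 genes, all but Fosl1, as 11 windows, with 3 for Maff. TGACG was found in 6 of these windows, from Fos, Fosb, Junb, Atf3 and Maff, and in 17.8% of all 32851 windows. In Fos it began 129 and 66 bases before the start, with TATAAA 33 bases before it, and in Fosb it began 60 bases before the start. TGACTCA and the CArG box were in none of the 11 windows and in 4.46% and 1.47% of all windows. Elements further than 250 bases before the start lay outside the search, so their absence from the promoters was not shown. A match is a stretch of letters and was not shown to be bound in these cells.

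Across the Jun family Jund and Jun were higher in SSM3, whilst the smaller difference of Junb rested on single libraries. Jund, which encodes the Jun protein that is most steadily expressed in resting cells, had the largest difference of the 3. Jund (ENSMUSG00000071076, chromosome 8 from 70698949 to 70700616, forward strand), a gene of 1 exon, was at 107, 108 and 106 CPM in the J110 libraries, against 364, 361 and 447 CPM in those of SSM3. The J110 libraries lay close together and SSM3 replicate 3 was the highest of all 6. Jund was 3.65-fold higher in SSM3 (log2 difference 1.87 ± 0.089 SE, edgeR adjusted p = 9.58e-12). Gm11175, on the opposite strand within its exon, had at most 2 counts in any library.

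Jun encodes c-Jun, the main partner of c-Fos. Jun (ENSMUSG00000052684, chromosome 4 from 95049034 to 95052222, reverse strand), also a gene of 1 exon, was at 41.6, 43.7 and 49.0 CPM in the J110 libraries, against 94.9, 68.6 and 60.1 CPM in those of SSM3. The SSM3 libraries were spread over a wider range than those of J110, with replicate 1 the highest, and did not reach down to them. The log2 difference was 0.73 ± 0.14 (SE, edgeR adjusted p = 0.000152). Junos, on the opposite strand of Jun, had 1, 2 and 2 counts in the J110 libraries, against 5, 10 and 15 in those of SSM3.

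Junb, which can hold back c-Jun activity as well as activate genes itself, differed least. Junb (ENSMUSG00000052837, chromosome 8 from 84974484 to 84978718, reverse strand) was at 219, 235 and 220 CPM in the J110 libraries, against 315, 239 and 248 CPM in those of SSM3. The lowest SSM3 library lay just above the highest J110 library, and SSM3 replicate 1 stood above the other two. The log2 difference was 0.25 ± 0.094 (SE, edgeR adjusted p = 0.0235). Without SSM3 replicate 1 it was 0.12 (adjusted p = 0.162), without J110 replicate 1 it was 0.22 (adjusted p = 0.0962) and without J110 replicate 3 it was 0.23 (adjusted p = 0.0855), in a range of adjusted p from 0.000796 to 1 over all alternatives. The last 173 exonic bases of Junb at its 3′ end are shared with Prdx2 on the opposite strand, a gene with 1083 to 1115 counts in J110 and 2657 to 2930 in SSM3. As the strand setting of the counting is not given in the sources used here, the value of Junb is uncertain.

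The bases before the starts of Jun and Junb are shown because both genes belong, like Fos, to the serum response. Capitals mark TGACATCA in Jun and TGACG in Junb.
Jun, chr4:95052223-95052372, reverse strand: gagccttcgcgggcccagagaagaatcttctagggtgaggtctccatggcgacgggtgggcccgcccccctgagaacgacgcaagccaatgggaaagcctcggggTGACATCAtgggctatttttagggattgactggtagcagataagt
Junb, chr8:84978749-84978898, reverse strand: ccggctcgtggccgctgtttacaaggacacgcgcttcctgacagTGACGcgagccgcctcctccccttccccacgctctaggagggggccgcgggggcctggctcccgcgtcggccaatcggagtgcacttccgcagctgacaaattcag
TGACATCA began 45 bases before the start of Jun and was found in 2 of the 11 windows, the other from Maff, and in 2.93% of all windows. In Junb TGACG began 106 bases before the start. The windows of Jund, Fosl2 and Batf3 held none of the sequences searched.

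**Figure D2:**
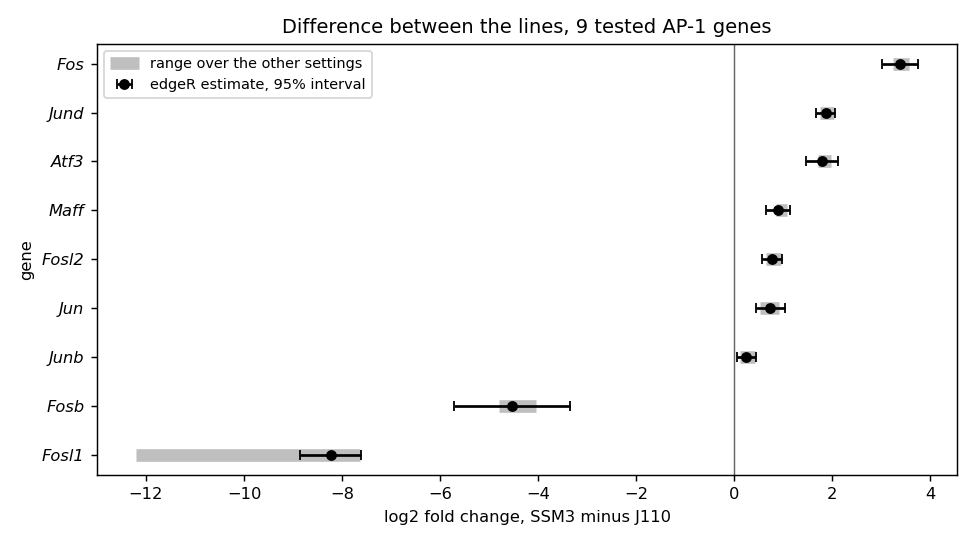
Log2 fold change, SSM3 minus J110, of the 9 tested AP-1 genes, with points for the edgeR estimate, bars for its 95% interval and grey bands for the range over the other settings. The 7 positive values run from 0.25 (Junb) to 3.39 (Fos), and the band of Fosl1 reaches past -12 in the settings that leave out SSM3 replicate 2, where no count is left in SSM3.

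Atf3, Maff and Batf3, the members outside the Fos and Jun families, were all at higher levels in SSM3. Atf3 (ENSMUSG00000026628, chromosome 1 from 191170296 to 191218039, reverse strand) encodes a stress-induced factor that pairs with Jun proteins. It had 38, 42 and 40 counts in the J110 libraries, against 134, 129 and 131 in those of SSM3. The counts hardly varied within a line, and the SSM3 libraries all lay above those of J110. Atf3 was 3.47-fold higher in SSM3 (log2 difference 1.79 ± 0.15 SE, edgeR adjusted p = 1.88e-08).

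Maff (ENSMUSG00000042622, chromosome 15 from 79346621 to 79359076, forward strand) encodes a small Maf protein without a transactivation domain. It was at 26.2, 24.1 and 24.8 CPM in the J110 libraries, against 42.3, 49.5 and 48.4 CPM in those of SSM3, a log2 difference of 0.90 ± 0.11 (SE, edgeR adjusted p = 2.08e-06). Batf3, known for the development of dendritic cells, had 1, 0 and 2 counts in the J110 libraries, against 8, 13 and 15 in those of SSM3. Its counts were too low for the filter with all 6 libraries. It passed in 5 alternatives, a filter of at least 1 count and the omission of J110 replicate 1, 2 or 3 or of SSM3 replicate 1, and was called higher in each, with log2 differences from 2.96 to 4.36 and edgeR adjusted p from 1.06e-06 to 0.000907. Where a library was omitted, Batf3 passed only through its counts in SSM3, the line where it is higher. Those calls are therefore no independent support for the direction. By summed counts the ratio of SSM3 to J110 was 12.7, with an exact 95% interval from 4.01 to 64.4 that covers counting error only.

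Atf3 and Maff are shown because a match lies within 30 bases of the start in both, a half-site in Atf3 and the whole element in Maff, whose window is the middle one of its 3. Capitals mark TGACG on the opposite strand in Atf3 and the whole element TGACGTCA in Maff.
Atf3, chr1:191183334-191183483, reverse strand: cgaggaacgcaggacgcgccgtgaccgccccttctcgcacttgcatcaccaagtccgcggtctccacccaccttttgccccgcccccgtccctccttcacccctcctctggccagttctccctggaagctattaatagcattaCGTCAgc
Maff, chr15:79347370-79347519, forward strand: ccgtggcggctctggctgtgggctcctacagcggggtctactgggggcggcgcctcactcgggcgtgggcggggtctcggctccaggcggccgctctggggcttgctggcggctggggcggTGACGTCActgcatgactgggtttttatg
TGACGTCA began 29 bases before this start of Maff, was in 1 of the 11 windows and was in 1.55% of all windows. The match in Atf3 began 7 bases before the start.

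Ratios between 2 members within a library do not depend on how the libraries are scaled, and 4 such ratios were compared between the lines. In each pair the libraries of J110 and SSM3 did not overlap (p = 0.1 by a two-sided exact permutation test, below which 3 libraries against 3 cannot go, and 0.1 adjusted over the 4 pairs). The log2 ratio of Junb to Jund was 1.07 ± 0.04 in J110 and -0.55 ± 0.33 in SSM3 (SD, n = 3 each). That of Jun to Jund was -1.26 ± 0.13 in J110 and -2.41 ± 0.48 in SSM3. Relative to Junb and to Jun, Jund was thus higher in every SSM3 library than in any J110 library. For Fos over Fosl1 the log2 ratio was -4.58 ± 0.11 in J110 and 7.69 ± 2.15 in SSM3, and for Fosl1 over Fosl2 it was 1.06 ± 0.28 and -8.63 ± 1.95. The SSM3 values of the last 2 ratios rest on 0 counts of Fosl1 in 2 libraries and move with the pseudocount of 0.5.

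**Figure D3:**
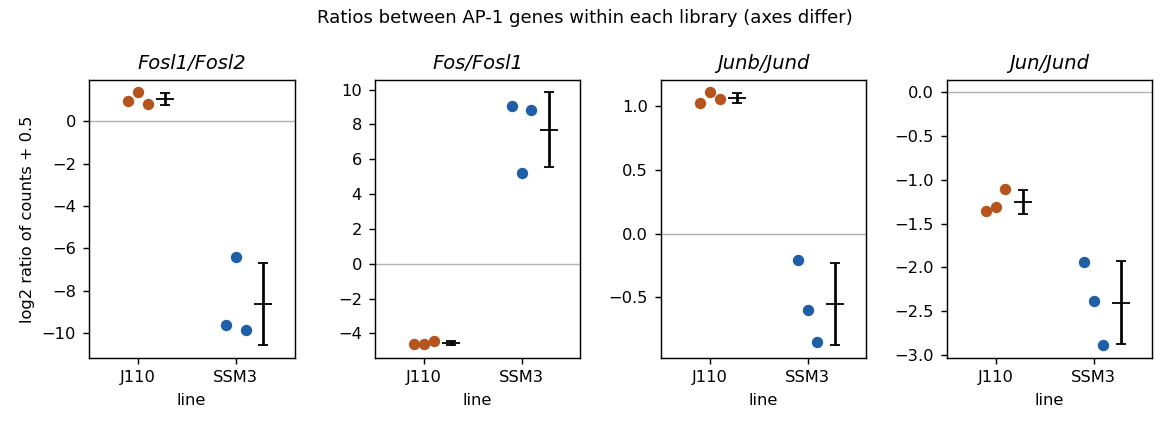
Log2 ratio of the counts (plus 0.5) of 2 AP-1 genes within each library, with points for libraries and a mean with its SD (n = 3) beside them, on an axis of its own for each pair. Junb to Jund lies between 1.03 and 1.11 in J110 and between -0.85 and -0.21 in SSM3.

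By the pattern over the 6 libraries, the 5 genes most like Fosl1 were Prl, Avil, Cntln, Procr and Selp, with Pearson correlations of log2 CPM from 0.99961 to 0.99985. Of the 9062 other genes with at least 10 CPM on average, 368 had a correlation above 0.99, and all these values share the same 6 libraries of 2 lines. Prl had 1589, 1460 and 1329 counts in the J110 libraries, against 0, 6 and 0 in those of SSM3. Each of the 5 genes had counts in replicate 2 of SSM3 and none in replicates 1 and 3, as Fosl1 did, a likeness that the measure itself selects.

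Partners and relatives of the AP-1 proteins were listed as 23 genes of the same zipper class, of which 15 were tested. Of these, 2 were higher and 10 lower in SSM3, with a median log2 fold change of -0.62 against -0.01 over all genes tested. The share called was 80.0%, near the 77.9% of all genes. Jdp2, which encodes a repressor that pairs with Jun proteins, had 149, 169 and 181 counts in the J110 libraries, against 0, 1 and 0 in those of SSM3. By summed counts it was 472-fold lower in SSM3, with an exact 95% interval from 84.3 to 18685 for counting error only, and its single SSM3 count was in replicate 2 (log2 difference -8.44 ± 0.40 SE, edgeR adjusted p = 7.28e-12). Nfe2l2, which encodes the antioxidant factor NRF2, a partner of small Maf proteins, had 293 ± 14.1 CPM in J110, against 90.2 ± 14.3 CPM for SSM3 (n = 3 each, ± SD). In the other direction Atf4, a factor of the amino acid response, was counted at 285 ± 24.0 and 605 ± 61.2 CPM, and Mafk, another small Maf, at 19.9 ± 2.04 and 25.2 ± 0.893 CPM (SD, n = 3 each). The adjusted p of Mafk was 0.0315 in edgeR. Only 1 partner was called higher by DESeq2, and likewise without J110 replicate 2, J110 replicate 3, SSM3 replicate 1 or SSM3 replicate 3.

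Other immediate-early genes did not move as one group. Of 33 listed, 29 were tested, with 10 higher and 17 lower in SSM3 and a median log2 fold change of -1.36. The share called was 93.1%, with 34.5% higher and 58.6% lower, against 77.9%, 38.6% and 39.2% of all genes tested. Among those with at least 10 counts in every library the median was -0.25, with 8 higher and 11 lower. Those higher included Ier3, an early stress-response gene, at 136 ± 14.7 CPM in J110, against 658 ± 58.4 CPM for SSM3 (n = 3 each, ± SD, log2 difference 2.28), and Sgk1, a kinase induced by serum and glucocorticoids, at 73.6 ± 2.27 and 256 ± 22.4 CPM (log2 difference 1.80). Those lower included Ccn2, a matrix-associated growth regulator also known as CTGF, with 2508, 2104 and 1839 counts in J110 and 1, 7 and 4 in SSM3 (log2 difference -8.94). Ptgs2, which encodes COX-2, had 189 ± 8.30 CPM in J110, against 1.75 ± 1.45 CPM for SSM3 (n = 3 each, ± SD, log2 difference -6.73). Without SSM3 replicate 2, the mean in SSM3 was 0.931 CPM for Ptgs2 and 0.509 CPM, in place of 0.835, for Ccn2. Without J110 replicate 1 or without J110 replicate 2, 6 genes were called higher in place of 10, and DESeq2 called 7.

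Among 26 kinases and other regulators that act on AP-1, 25 were tested, with 7 higher and 12 lower in SSM3 and a median log2 fold change of -0.31. The share called was 76.0%, near the 77.9% of all genes tested. The median was -0.05 without J110 replicate 2, -0.17 without SSM3 replicate 1 and -0.20 without SSM3 replicate 3, and with library size only, without TMM, it was -0.14 and the split was 8 higher and 8 lower. Map2k7, a kinase that activates JNK, which in turn phosphorylates c-Jun, had 15.3 ± 0.999 CPM in J110, against 51.1 ± 4.87 CPM for SSM3 (n = 3 each, ± SD, log2 difference 1.74). Rps6ka1, the ribosomal S6 kinase RSK1 downstream of ERK, was counted at 17.0 ± 2.05 and 37.0 ± 1.73 CPM (log2 difference 1.12). Map2k1, which encodes the ERK-activating kinase MEK1, was lower in SSM3, at 182 ± 12.8 CPM in J110, against 53.3 ± 9.37 CPM for SSM3 (n = 3 each, ± SD, log2 difference -1.78). Elk3, an ETS factor that joins SRF at serum response elements, was counted at 95.7 ± 6.58 and 10.2 ± 0.904 CPM (log2 difference -3.24).

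Genes widely described as AP-1 targets were mostly lower in SSM3. Of 26 listed, 20 were tested, with 2 higher and 16 lower in SSM3 and a median log2 fold change of -3.17, against -0.01 over all genes tested. The share called was 90.0%, with 80.0% lower, against 77.9% and 39.2% of all genes. With at least 10 counts in every library 12 were tested, with 0 higher, 10 lower and a median of -2.99. Hmga2, a chromatin protein of embryonic and mesenchymal cells, had 5483, 5000 and 5230 counts in the J110 libraries, against 1, 15 and 3 in those of SSM3 (log2 difference -9.59 ± 0.22 SE, edgeR adjusted p = 8.68e-16). Axl, a receptor tyrosine kinase, had 256 ± 18.3 CPM in J110, against 0.706 ± 0.493 CPM for SSM3 (n = 3 each, ± SD, log2 difference -8.46). For both genes SSM3 replicate 2 had the most counts of the SSM3 libraries, and without it the SSM3 mean was 0.41 CPM, in place of 1.33, for Hmga2 and 0.422 CPM for Axl. The 2 targets that were higher were Ivl, the cornified envelope protein involucrin, at 1.33 ± 0.138 CPM in J110, against 53.8 ± 4.50 CPM for SSM3 (n = 3 each, ± SD, log2 difference 5.31), and Mmp3, a matrix protease, with 0, 1 and 1 counts in J110 and 11, 9 and 10 in SSM3. These genes answer to other factors as well, and the list was not tested against other genes. Like the other lists, it was chosen with earlier results of these data known, so its split is no independent finding.

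**Figure D4:**
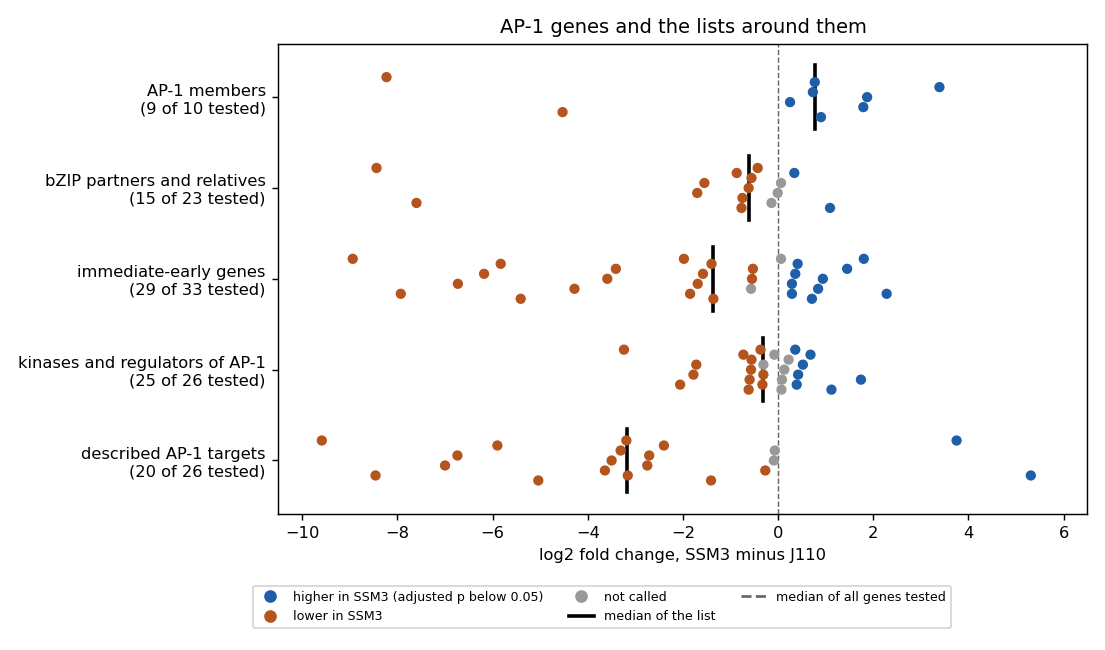
Log2 fold change, SSM3 minus J110, of each tested gene of the AP-1 members and of 4 lists around them, with blue for genes called higher in SSM3, orange for lower and grey for not called. Black bars mark list medians, 0.77 for the AP-1 members and -0.62, -1.36, -0.31 and -3.17 for the lists in order, beside a dashed line for the median of all genes at -0.01.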

How the data were processed

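RNA of J110 and SSM3 cells (n = 3 each) was made into QuantSeq 3′ libraries and sequenced as single end reads. Per the labels and the study's methods, the authors trimmed reads with cutadapt (2.1), mapped them to mm10 with HISAT2 (2.0.4) and counted them per gene with featureCounts of Subread (2.0.0), and the deposited values are raw counts without normalisation. An item of the SSM3 background is not reported here. All 6 libraries were used, grouped by their labels, and p-values measure the spread between these cultures.

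Of 52636 gene identifiers, 52489 (99.7%) matched GENCODE M21 of GRCm38, which gave symbols and coordinates. After filterByExpr and TMM scaling, edgeR (4.0.16, in R 4.3.3) compared the lines by its quasi-likelihood F test, with Benjamini-Hochberg adjustment over all 12284 genes and a threshold of 0.05. The script was tested on simulated data in which most genes did not differ. In these libraries 77.9% of genes were called, a case that the simulation does not cover. Standard errors are the log2 fold change divided by the square root of F. Replicates differed by more than sampling noise (chi-square per degree of freedom 2.21 to 5.62). Same-numbered replicates correlated too weakly to pair them, although more than the others, as given below.

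The members and lists were chosen with earlier results of these data known. Named genes are the members, in each list the 2 furthest from 0 on the log2 scale on either side, among genes called with at least 10 CPM on average, and the 5 most correlated with the member of largest change. Egr1, Ier2, Klf2, Zfp36, Btg2, Dusp1, Gem, Mmp3, marker genes and genes sharing exons were named after their values were seen. Promoters are from RefSeq (GRCm38.p6). Alternatives covered DESeq2 (1.42.0), limma-voom (3.58.1), scalings, filters, a 2-fold threshold, a replicate block and omitted libraries.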

Additional observations from a re-analysis of the deposited data

How the results depend on the processing

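None of the 9 tested members changed direction under its 15 or 16 alternatives. Of the values for single genes under all alternatives, 135 kept their call and 7 lost it, of which 4 were of Junb and 1 each of Fosl2, Jun and Maff, all 3 under the 2-fold test. Testing only changes beyond 2-fold with glmTreat left 3 AP-1 members higher, 0 partners higher and 4 lower, 3 immediate-early genes higher, and 1 regulator higher and 4 lower. Requiring 10 or more counts from all 6 libraries, which by its construction drops any gene that 1 line lacks, left 0 members lower, 11 immediate-early genes lower, and 0 targets higher and 10 lower. DESeq2 called 1 partner higher. Leaving out each library in turn gave from 1 to 2 partners higher and from 6 to 10 immediate-early genes higher. Leaving out J110 replicate 3 and SSM3 replicate 2 together, an alternative chosen after seeing the data since both hold a few counts of genes otherwise seen in the opposite line, gave 7 members higher, 2 lower and 1 partner higher. With the replicate number as a block, 7 members were higher and 2 lower, as without it, and no call of a member changed. The replicate numbers share no source in the labels, and deviations of same-numbered libraries correlated at 0.012, 0.015 and 0.027, the highest for each library but too low to pair them. Library size only, without TMM, moved the median log2 difference over all genes from -0.014 to 0.161 and shifts every value by about as much. With a pseudocount of 3 in place of 0.5, the differences of the 4 ratios kept their direction, with -7.79 in place of -9.69 for Fosl1 over Fosl2 and 10.24 in place of 12.27 for Fos over Fosl1. Depth limits Batf3, Fosb in SSM3 and Fosl1 in SSM3, where single counts decide the value.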

Other observations

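Within SSM3, 7 genes that respond fast to stimulation, Fos, Jun, Junb, Egr1, Ier2, Klf2 and Zfp36, were highest in replicate 1. Fos was counted at 58.8 CPM there against 43.3 and 44.8 CPM in replicates 2 and 3, Jun at 94.9 against 68.6 and 60.1 CPM, and Junb at 315 against 239 and 248 CPM. Egr1, an early zinc finger factor, had 68.4 CPM in replicate 1 against 46.3 and 48.8 CPM, Ier2 had 48.5 against 29.7 and 41.6 CPM, Klf2 had 13.8 against 7.86 and 9.35 CPM, and Zfp36, which encodes an mRNA decay factor, had 20.7 against 13.2 and 13.9 CPM. Jund, Fosl2 and Maff did not share this, with the highest SSM3 value in replicate 3 for Jund and in replicate 2 for Fosl2 and Maff. Among the other immediate-early genes Ier3, Btg2 and Sgk1 were highest in replicate 3 of SSM3 and Dusp1 in replicate 2. Over all immediate-early genes tested with counts in SSM3, 13 were highest in replicate 1, 7 in replicate 2 and 8 in replicate 3, against 6, 12 and 11 in J110, and these tallies include genes with very few counts, such as Gem with 2, 1 and 1 in SSM3. All genes named here were chosen after their values were seen, and groups of 3 libraries were not tested for an outlying value.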
